A study of Homo sapiens with 18 samples.

Results

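HepG2 cells, a human hepatoblastoma-derived line with many features of hepatocytes, were treated with 10 µM of the small molecule 6N-10CA or with 10 µM of the small molecule 6N, and RNA was sequenced from 3 libraries of each. These 6 libraries, of 18 in the series, carry the comparison of 6N-10CA with 6N, chosen by their treatment labels. The other libraries were 3 each with 10 µM 10CA, 100 µM DLPC (dilauroylphosphatidylcholine, a phospholipid), 0.1% ethanol and 0.1% DMSO. All cells were held in medium with charcoal-stripped serum, which is poor in lipophilic hormones and other small lipids. The labels give no treatment time, and no label says whether replicates were separate cultures. The p-values below therefore rest on the spread between libraries within groups, estimated over all 18 libraries, which may be technical. The names 6N, 10CA and 6N-10CA are code names, and the hybrid's name joins those of the other two. Knowledge of the study, not the labels, makes DMSO the vehicle for 6N, 10CA and 6N-10CA.

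The compounds were made for LRH-1 (gene NR5A2), a nuclear receptor that binds phospholipids in its pocket and, in liver, drives genes of bile acid synthesis, cholesterol transport and steroid metabolism. Cholesterol and fatty acid synthesis in hepatocytes are set mainly by the SREBP transcription factors: SREBP2 (gene SREBF2) acts on the cholesterol pathway, and SREBP1 (gene SREBF1) on fatty acid synthesis. SREBPs stay in the endoplasmic reticulum membrane while sterols are plentiful and are cleaved and sent to the nucleus when sterols fall. A separate sensor, the aryl hydrocarbon receptor (AHR), binds planar aromatic molecules and switches on CYP1A1.

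Genes of cholesterol and fatty acid synthesis were higher and CYP1A1 was lower with 6N-10CA than with 6N. Of 14797 genes tested, 242 were called (edgeR's quasi-likelihood test, Benjamini-Hochberg adjusted p under 0.05), 1.64% of those tested. They comprise 166 higher with 6N-10CA, 1.12% of genes tested, and 76 lower, 0.514%. All 242 had the 3 libraries of each compound apart. The share of all genes tested that were separated in this way was not counted. Separation of libraries, here and below, is therefore description only and adds no support to a call. The higher genes had a median log2 fold change of 0.43 and the lower genes one of -0.24. Over 2-fold, 11 called genes were higher and 1, CYP1A1, was lower. The median over all genes tested was 0.00. At an unadjusted p under 0.05 stood 2137 genes.

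Library totals ran between 28988419 and 34992442 counts, where 3 counts, the limit that a count of 0 allows, come to 0.0857 to 0.103 CPM (counts scaled to library depth). That limit covers counting error only, because the cDNA was amplified and molecules were not tagged. Among 10686 genes expressed above 5 CPM, 95% intervals extended a median of 0.15 to either side of the log2 estimate. The total of called genes was 143 without 6N-10CA replicate 3, 155 without 6N replicate 1 and 138 without 6N replicate 2. The count of higher genes was 105 without 6N replicate 2. The count of lower genes was 46 without 6N-10CA replicate 2, 26 without 6N-10CA replicate 3, 25 without 6N replicate 1 and 33 without 6N replicate 2. The median of 0.00 over all genes moved by less than 0.1 under every scaling tried. With the number as a block 577 genes were higher, 3.9% of those tested, and 654 lower, 4.42%, and these include all 242 with the same sign. Those 2 shares are the background for every blocked count of list members below. With only the 6 libraries in the fit 93 genes were higher and 16 lower, and among the genes named below C17orf51, CAPN12, CDC20, CDH1, CPT2, CTSB, CYB5A, DDIT4, EPHX1, GGT6, HSD3B7, IHH, LIPA, LPIN1, PALM3, PGD, PLK1, PLTP, PTCHD3P1, RNF223, SPCS2P4 and WIPI1 were not called there. Of the 64 called genes that the naming rule selected, 37 kept their call with each of the 6 libraries left out in turn.

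**Figure D1:**
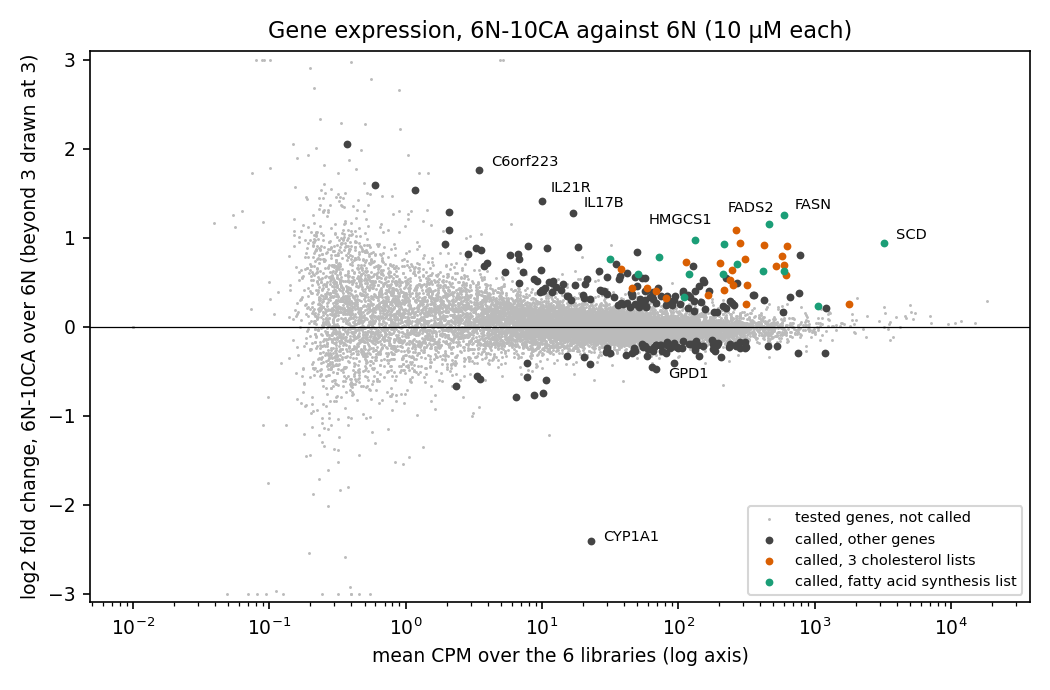
Log2 fold change of 6N-10CA over 6N (vertical axis, values beyond 3 drawn at 3) against the mean CPM of the 6 libraries (horizontal log axis) for 14797 genes. Large points are the 242 called genes, orange for the 3 cholesterol lists and green for fatty acid synthesis; those lie above 0, and CYP1A1 lies apart at -2.41.

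The receptor itself was expressed at a low level. NR5A2 stood at 3.25, 4.43 and 4.39 CPM with 6N-10CA, against 3.56, 4.40 and 3.84 CPM with 6N. The groups overlapped. The log2 fold change was 0.04 (SE 0.19, 95% interval -0.35 to 0.43). The hepatocyte character of the cells showed in both groups: all 14 marker genes such as ALB, AFP and APOA1 were expressed, with a summed level of 74029 ± 4171 CPM with 6N-10CA and 67803 ± 6305 CPM with 6N (SD, n = 3), and 0 were called. Markers of stromal, endothelial and blood cells, 38 genes of which 20 passed the filter, summed to 513 to 536 CPM with 6N-10CA and 486 to 548 CPM with 6N, and 0 were called. With the replicate block the hepatocyte markers AHSG, APOB and TF were higher and CD68, a macrophage marker, was lower. The part of these markers in the results below was not tested.

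The genes of the mevalonate arm, which turns acetyl-CoA into farnesyl diphosphate, rose with 6N-10CA over 6N in 7 of 9 members, with 0 lower. The called share was 77.8%, beside 1.64% of all genes tested. HMGCS1, which condenses acetyl units into HMG-CoA, had 336, 373 and 376 CPM with 6N-10CA, against 165, 169 and 178 CPM with 6N. The lowest 6N-10CA library lay far above the highest 6N library. The mean was 2.12-fold higher (1.09 on the log2 scale, SE 0.06, adjusted p = 2.52e-09). MVD, which makes isopentenyl diphosphate, had 370, 377 and 371 CPM with 6N-10CA and 208, 190 and 184 CPM with 6N. Its groups stood apart as well (0.94, SE 0.06, adjusted p = 3.96e-09). In the same arm, IDI1 (isopentenyl isomerase) was at 0.71, FDPS (farnesyl diphosphate synthase) at 0.68, ACAT2 (thiolase) at 0.58 and MVK (mevalonate kinase) at 0.43, each of them called. PMVK, the next kinase, stood at 0.03 (95% interval -0.14 to 0.21) and was not called. GGPS1, which diverts farnesyl diphosphate to geranylgeranyl diphosphate, stood at 0.26 and was called only with the replicate block (adjusted p = 0.0084). The list's median log2 fold change was 0.68. In bulk RNA, fewer cells expressing a gene and less of its RNA per cell cannot be told apart.

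The promoters of 4 genes on which the contrast turns are printed, since HMGCS1, MVD and SREBF2 led the sterol genes or encode their regulator, and CYP1A1 led the fall. Each is the 250 bases before a RefSeq start on the gene's own strand, build GRCh38.p14, 5′ to 3′. Capitals mark CCAAT (the NF-Y box, ATTGG on the opposite strand) in HMGCS1 and MVD, CCAAT and TCACNCCAC (the sterol regulatory element) in SREBF2, and GCGTG (the xenobiotic response element core) in CYP1A1. Other matches, such as GCGTG in MVD and SREBF2 and CCAAT in CYP1A1, are left in lower case. The windows are chr5:43313413-43313662, minus strand, for HMGCS1; chr16:88663092-88663341, minus strand, for MVD; chr22:41832855-41833104, plus strand, for SREBF2; and chr15:74725529-74725778, minus strand, for CYP1A1. HMGCS1 has a second RefSeq window, chr5:43313182-43313431, which holds no CCAAT and no TCACNCCAC and is not printed.
HMGCS1: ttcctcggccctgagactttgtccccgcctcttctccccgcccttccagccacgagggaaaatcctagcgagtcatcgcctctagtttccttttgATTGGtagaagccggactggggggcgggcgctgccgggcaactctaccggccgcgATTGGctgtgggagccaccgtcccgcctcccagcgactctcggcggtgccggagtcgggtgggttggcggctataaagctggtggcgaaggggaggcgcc
MVD: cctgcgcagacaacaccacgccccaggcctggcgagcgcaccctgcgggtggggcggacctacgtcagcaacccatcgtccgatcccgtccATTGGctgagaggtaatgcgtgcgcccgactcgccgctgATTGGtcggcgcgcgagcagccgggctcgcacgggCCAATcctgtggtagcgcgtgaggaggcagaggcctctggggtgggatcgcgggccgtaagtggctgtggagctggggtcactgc
SREBF2: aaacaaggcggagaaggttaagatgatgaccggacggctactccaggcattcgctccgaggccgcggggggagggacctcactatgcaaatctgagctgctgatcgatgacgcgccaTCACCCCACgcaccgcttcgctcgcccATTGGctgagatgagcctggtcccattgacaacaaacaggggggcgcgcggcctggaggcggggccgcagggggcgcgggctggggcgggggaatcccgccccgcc
CYP1A1: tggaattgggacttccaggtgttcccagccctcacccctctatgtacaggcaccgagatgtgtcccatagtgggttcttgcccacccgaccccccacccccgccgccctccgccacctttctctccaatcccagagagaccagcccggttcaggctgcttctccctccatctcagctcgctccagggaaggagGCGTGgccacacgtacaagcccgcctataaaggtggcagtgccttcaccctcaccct

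These letters were counted on both strands in all windows. RefSeq windows were at hand for 10544 of the genes tested (15361 windows, some of them of 1 gene and overlapping) and for 17 of the 24 called genes of the 3 cholesterol lists (22 windows). CCAAT was in 18 of those 22 windows, 81.8%, against 32.7% of all windows. GCGTG, which in places overlaps the other motifs, was in 86.4% of the cholesterol windows against 42.2% of all. TCACNCCAC was in 1 of the 22, that of SREBF2, and in 0.911% of all windows. Among all 166 higher genes 44.2% of windows held CCAAT and 2.513% held TCACNCCAC. Among the 76 lower genes the shares were 32.9% and 0 of 79 windows. For the fatty acid list CCAAT was in 45.5% of 22 windows and TCACNCCAC in 1 window, of ACSL1. A match is a run of letters, not a shown binding site.

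The second leg, from squalene to cholesterol, rose in 12 of 13 members with 6N-10CA, with 0 lower and a list median of 0.44. The called share was 92.3%, beside 1.64% of all genes tested. FDFT1, the squalene synthase at the branch into sterols, had 748, 729 and 701 CPM with 6N-10CA, against 443, 407 and 408 CPM with 6N (0.79, SE 0.05, adjusted p = 4.04e-09). LSS, which closes the sterol ring, had 574, 538 and 557 CPM with 6N-10CA and 312, 291 and 284 CPM with 6N (0.91, SE 0.06). No library of one compound reached those of the other in either gene. SQLE, the squalene epoxidase, was at 0.52, DHCR7, which makes cholesterol from 7-dehydrocholesterol, at 0.69, MSMO1 (C4 methyl oxidase) at 0.64 and CYP51A1 (lanosterol demethylase) at 0.47. HSD17B7 (0.44), SC5D (0.40) and NSDHL (0.32), enzymes of the steps after lanosterol, rose too. EBP, a sterol isomerase, rose by 0.25. LBR, a nuclear envelope protein with sterol reductase activity, stood at 0.11 (95% interval 0.01 to 0.21) and was not called. The calls of TM7SF2 (0.41) and EBP were lost without 6N-10CA replicate 1 (adjusted p = 0.0511 and 0.0517), and that of TM7SF2 also without 6N replicate 2 (0.0583).

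Summed over the 22 enzymes of both legs, expression was 8703, 8684 and 8708 CPM with 6N-10CA and 6150, 5811 and 5890 CPM with 6N. The same sum was 7418, 7834 and 7427 CPM with 10CA and 7933, 8256 and 7805 CPM with DMSO. The 6N-10CA libraries lay above those of every other group named, and the 6N libraries below.

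Genes that control SREBP2 and take up cholesterol divided. With 6N-10CA, 5 of 14 were higher and 0 lower (35.7%, beside 1.64% of all genes tested), with a list median of 0.10. SREBF2 had 385, 352 and 373 CPM with 6N-10CA and 274, 263 and 269 CPM with 6N (0.46, SE 0.05, adjusted p = 2.63e-05). The groups did not overlap. STARD4, a cytosolic sterol carrier, was at 0.64 and TMEM97, a partner of the lysosomal cholesterol exporter, at 0.36. The processing machinery did not pass the test: SCAP, the escort of SREBPs, stood at -0.05 (95% interval -0.14 to 0.04), and the proteases MBTPS1 and MBTPS2 at -0.04 and 0.00. INSIG1, which retains SCAP when sterols are plentiful, had 0 to 2 counts per library in these 6 and was not tested. Whether those counts show the true expression of INSIG1 cannot be told from the counts alone.

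The fatty acid synthesis genes rose with 6N-10CA in 15 of 21 members, with 0 lower (16 and 0 with the block). The list median was 0.59, and 71.4% of the list was called, beside 1.64% of all genes tested. FASN, the multi-domain fatty acid synthase (chr17:82078333-82098332 in GENCODE 29, protein coding), had 810, 885 and 846 CPM with 6N-10CA, against 325, 376 and 363 CPM with 6N. Every 6N-10CA library lay far above every 6N library, and the mean difference was 2.39-fold (1.26 on the log2 scale, SE 0.10, adjusted p = 6.65e-08). SCD, the stearoyl-CoA desaturase and the most abundant of the list, had 4088, 4217 and 4353 CPM with 6N-10CA and 2292, 2056 and 2269 CPM with 6N (0.94, SE 0.05). SREBF1 had 276, 292 and 285 CPM with 6N-10CA and 142, 163 and 143 CPM with 6N (0.93, SE 0.07). Its groups did not overlap either.

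Of the steps that supply acetyl-CoA, ACSS2 (acetyl-CoA synthetase) was at 0.98 and ACLY (ATP citrate lyase) at 0.63, and SLC25A1, the mitochondrial citrate carrier, at 0.24. ACACA, the carboxylase that makes malonyl-CoA in the cytosol, was at 0.78, while ACACB, its mitochondrial-surface relative, stood at 0.04 (95% interval -0.20 to 0.27) and was not called. Of the elongases ELOVL6 (0.76) and ELOVL5 (0.33) rose, whereas ELOVL1 stood at -0.10 and ELOVL2 at 0.00. Of the acyl-CoA synthetases ACSL3 (0.70), ACSL1 (0.59) and ACSL4 (0.59) rose, and ACSL5 stood at 0.01. PNPLA3, a droplet-associated lipase and SREBP1 target, was at 0.59. The polyunsaturated fatty acid desaturases FADS2 and FADS1 were at 1.15 and 0.62. FADS2 had 658, 628 and 648 CPM with 6N-10CA and 319, 276 and 274 CPM with 6N. Exons of FADS1 and FADS2 overlap on opposite strands, and the sources used here do not say whether counting used strand, so their reads, like those of other overlapping pairs, may not be told apart. The call of SLC25A1 was lost without 6N-10CA replicate 1 (adjusted p = 0.153), 6N-10CA replicate 3 (0.075), 6N replicate 2 (0.13) and 6N replicate 3 (0.107).

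**Figure D2:**
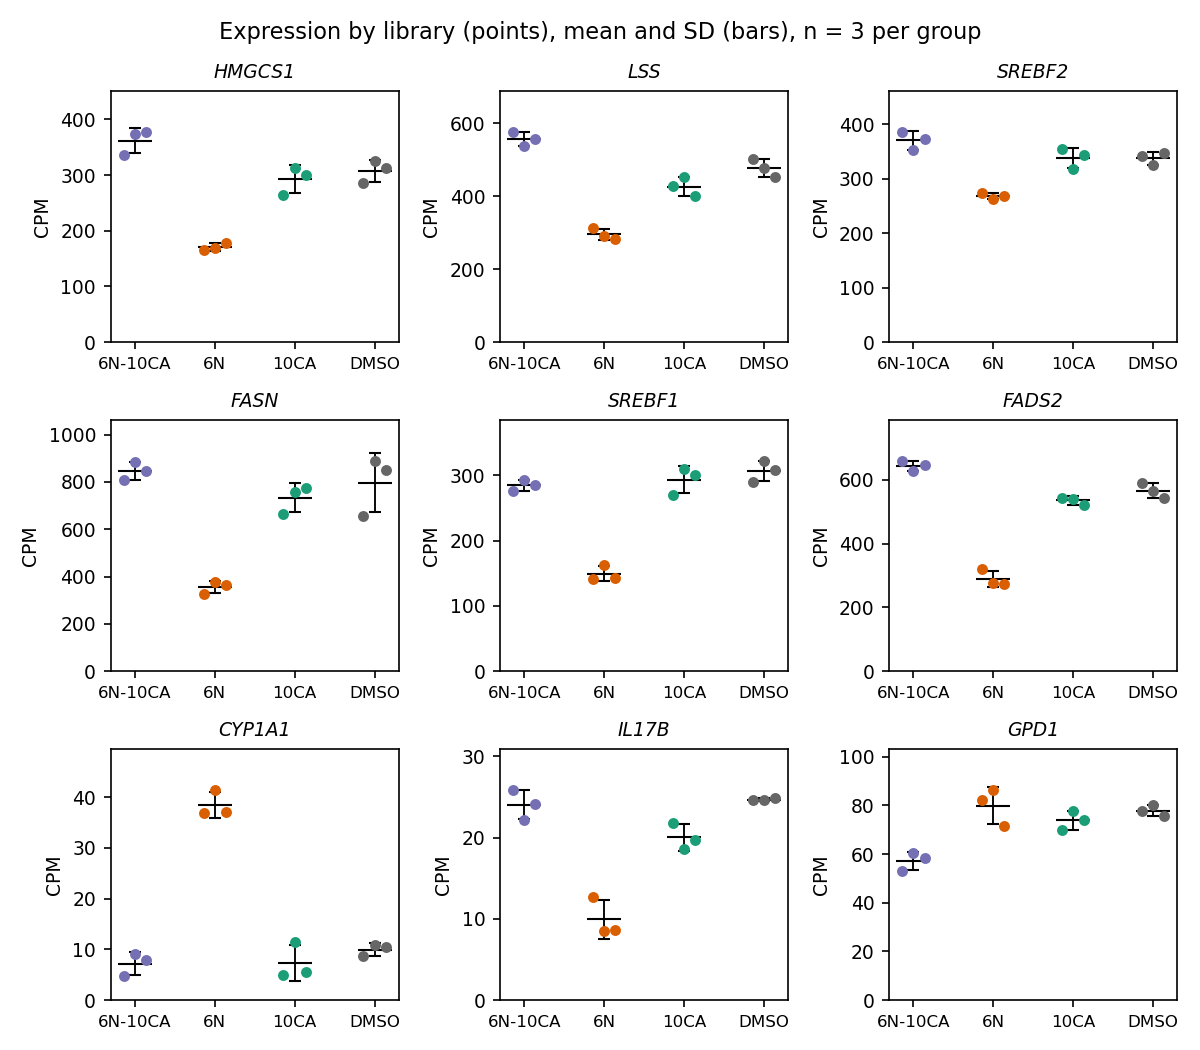
CPM of 9 genes in each library (points) with the mean and SD (bars, n = 3) for 6N-10CA, 6N, 10CA and DMSO. In the genes of sterol and fatty acid synthesis the 6N libraries lie below all others, as for FASN at 325 to 376 CPM with 6N; CYP1A1 shows the opposite, and GPD1 is lowest with 6N-10CA.

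Set against DMSO, most genes of the 3 cholesterol lists and the fatty acid list were lower with 6N, and none of them was called with 6N-10CA. These comparisons share libraries with each other and with 6N-10CA against 6N, so their values are given side by side only. For 6N-10CA over DMSO 39 genes were called, 0.264% of those tested, and for 6N over DMSO 169, 1.14%. FASN stood at 0.09 with 6N-10CA over DMSO and at -1.17 with 6N over DMSO. HMGCS1 stood at 0.24 and -0.85 and SREBF1 at -0.11 and -1.04, in the same order. In the 3 cholesterol lists 0 members were called for 6N-10CA over DMSO and 23 were lower for 6N over DMSO; in the fatty acid list the counts were 0 and 14. The list medians against DMSO were 0.19 with 6N-10CA and -0.52 with 6N for the mevalonate arm, and 0.09 and -0.43 for fatty acid synthesis.

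**Figure D3:**
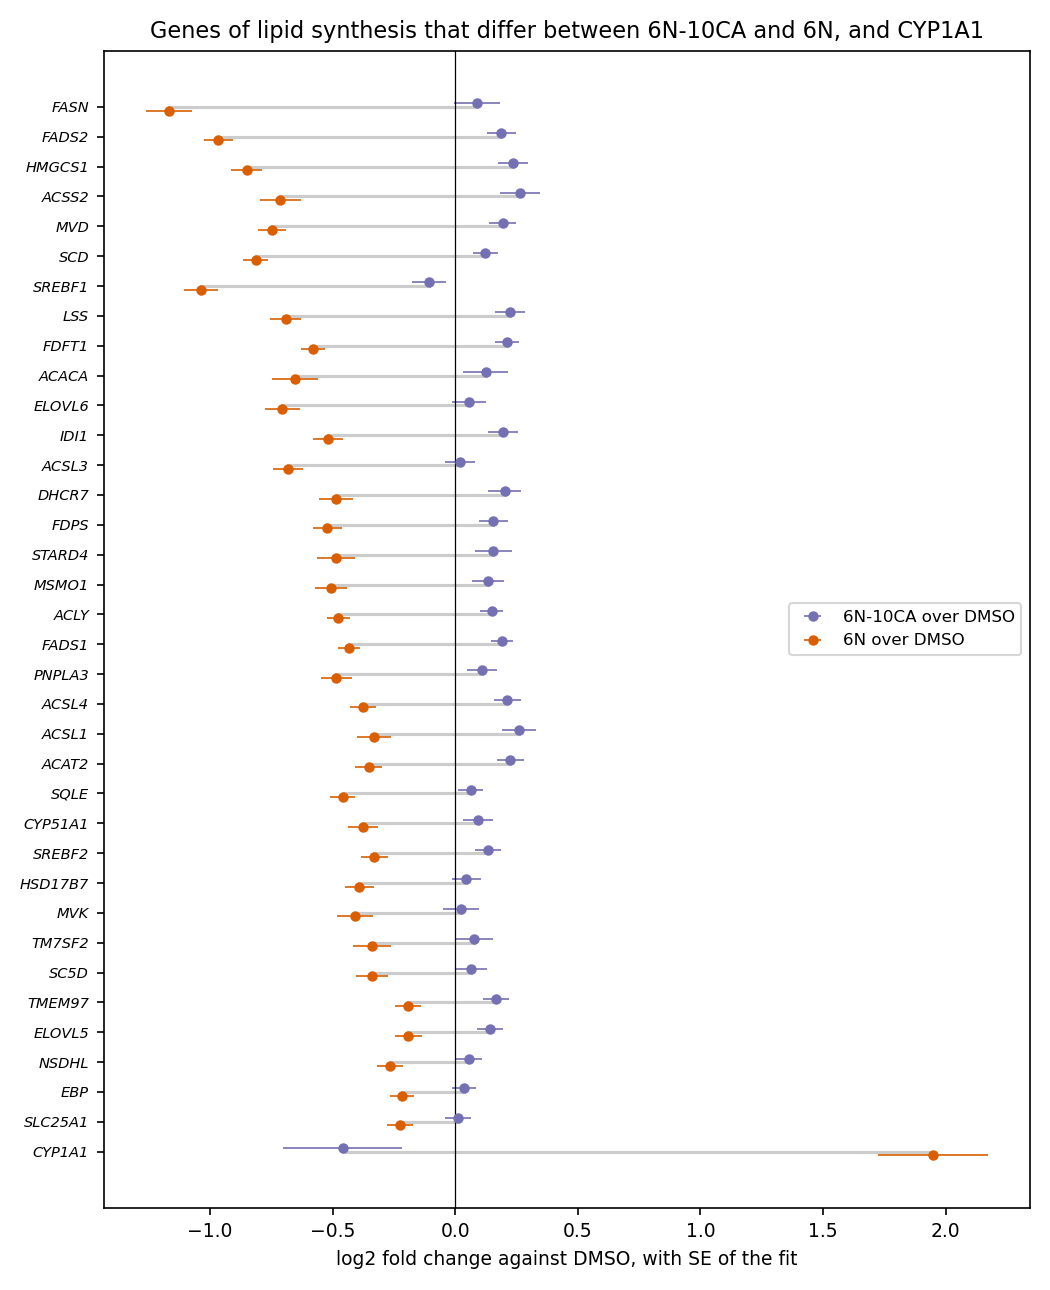
Log2 fold change against DMSO (horizontal axis, bars are the SE of the fit) for called genes of the cholesterol and fatty acid lists that are named in the text and for CYP1A1, with 6N-10CA in purple and 6N in orange. The lipid genes lie near 0 with 6N-10CA and below 0 with 6N, from FASN at -1.17 upward, and CYP1A1 lies at -0.46 with 6N-10CA and 1.95 with 6N.

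Genes of triglyceride synthesis and lipid droplets moved in both directions, with 3 of 22 higher and 2 lower (4 and 3 with the block). The median was -0.03, and 22.7% of the list was called, beside 1.64% of all genes tested. GPD1, which makes the glycerol phosphate backbone (chr12:50103819-50111319), had 53.1, 60.4 and 58.3 CPM with 6N-10CA, against 82.1, 86.1 and 71.5 CPM with 6N. Its highest 6N-10CA library lay under the lowest 6N library (-0.48, SE 0.08, adjusted p = 0.0015). AGPAT2, which adds the second acyl chain, had 49.8, 41.3 and 39.2 CPM with 6N-10CA and 32.2, 30.3 and 27.6 CPM with 6N (0.53, SE 0.10). PLIN2, a droplet coat protein, had 909, 804 and 898 CPM with 6N-10CA and 689, 615 and 697 CPM with 6N (0.38, SE 0.08). Unlike the members of the cholesterol and fatty acid lists, these 3 were called for 6N-10CA over DMSO. The values were -0.44 for GPD1, 0.52 for AGPAT2 and 0.40 for PLIN2, where 6N over DMSO stood at 0.04, -0.01 and 0.01. LPIN1, a phosphatidate phosphatase, was at 0.48 and DGAT1, which makes triglyceride, at -0.21. AGPAT2 lost its call without 6N-10CA replicate 1 (adjusted p = 0.0511), and PLIN2 lost it without 6N-10CA replicates 1 (0.0722) and 3 (0.0855) and 6N replicate 2 (0.102). LPIN1 kept its call only without 6N-10CA replicate 1, and DGAT1 only without 6N replicate 2, of the 6 libraries (adjusted p up to 0.135 and 0.158).

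CYP1A1, the monooxygenase that marks AHR activity (chr15:74719542-74725610), had the largest fall. It stood at 4.75, 9.0 and 7.82 CPM with 6N-10CA, against 36.9, 41.3 and 37.0 CPM with 6N. No 6N-10CA library came near the 6N libraries. The mean was 5.34-fold higher with 6N, and the log2 fold change of 6N-10CA over 6N was -2.41 (SE 0.23, adjusted p = 1.86e-06). Against DMSO, CYP1A1 was at -0.46 with 6N-10CA, not called, and at 1.95 with 6N, called. With 10CA it stood at 4.96, 11.4 and 5.59 CPM. The other 7 tested genes of the AHR list were not called. CYP1A2, its neighbour and close relative, had 0.734, 0.677 and 0.549 CPM with 6N-10CA and 1.01, 0.906 and 0.838 CPM with 6N (-0.49, SE 0.27). AHRR, the AHR repressor, stood at -0.30 (95% interval -0.80 to 0.21), TIPARP at 0.12 and NQO1 at 0.02. AHR itself stood at -0.06. The list median was -0.10, and 12.5% of the list was called, beside 1.64% of all genes tested.

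Of 25 LRH-1 targets tested, 1 (4%, beside 1.64% of all genes tested) was higher with 6N-10CA than with 6N and 0 lower. It was FADS2, which is also a fatty acid synthesis gene, and the list median was 0.01. NR0B2 (SHP), the corepressor that LRH-1 induces, had 110, 86.7 and 116 CPM with 6N-10CA and 101, 79.3 and 97.8 CPM with 6N. The groups overlapped (0.17, 95% interval -0.15 to 0.48). CYP7A1, whose hydroxylation step commits cholesterol to bile acids, had 24.7, 20.5 and 19.6 CPM with 6N-10CA and 22.3, 19.2 and 21.3 CPM with 6N (0.04, 95% interval -0.17 to 0.26). CYP8B1, which sets the cholic acid share, stood at 0.05 (-0.15 to 0.26), SCARB1, the receptor for high-density lipoprotein, at 0.00 (-0.12 to 0.11), and CYP19A1, the aromatase, at 0.00 (-0.17 to 0.18). SHBG, the carrier of sex steroids, stood at -0.28 and was called only with the block (adjusted p = 0.009). A missed threshold does not show equal levels, and these intervals are the limit of what the libraries resolve.

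Bile acid synthesis had 1 called member of 15, 6.67% beside 1.64% of all genes tested. The called gene, HSD3B7, which acts on the sterol ring, had 165, 170 and 154 CPM with 6N-10CA and 202, 198 and 181 CPM with 6N (-0.25, SE 0.05, adjusted p = 0.0184). Its call was lost without 6N-10CA replicate 3 (0.104), 6N replicate 1 (0.087) and 6N replicate 2 (0.0703). Of 11 bile acid and canalicular transporters 0 were called, and 2 were higher with the block. They encode the paired subunits of the basolateral bile acid exporter: SLC51A had 39.4, 32.0 and 32.4 CPM with 6N-10CA and 29, 24.9 and 23.4 CPM with 6N (0.42, adjusted p = 0.056, and 0.00141 with the block). SLC51B stood at 0.54 (adjusted p = 0.0589, and 0.0187 with the block). For SLC51A the value over DMSO was 1.11 with 6N-10CA and 0.68 with 6N, both called. The 6 vitamin D genes tested gave 0 calls, and CYP24A1, the vitamin D hydroxylase, stood at 0.979, 1.5 and 0.926 CPM with 6N-10CA and 2.61, 1.74 and 2.16 CPM with 6N (-0.92, SE 0.32). With the block CYP27A1, a sterol hydroxylase on both lists, was lower, which makes 1 lower for vitamin D and 2 lower for bile acid synthesis.

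Targets of the liver X receptors (LXR), sensors of oxysterols, were higher with 6N-10CA than with 6N in 4 of 12 members. None was lower, and the median was 0.22 (5 and 0 with the block). The called share was 33.3%, beside 1.64% of all genes tested. Called were SREBF1, MYLIP, a ubiquitin ligase, LPCAT3, which puts polyunsaturated chains into phospholipids, and PLTP, the phospholipid transfer protein. Over DMSO, 0 of the list were called with 6N-10CA (median -0.05) and 3 were lower with 6N (median -0.16). MYLIP had 9.40, 8.78 and 7.51 CPM with 6N-10CA and 5.39, 5.07 and 4.68 CPM with 6N (0.76, SE 0.12). LPCAT3 had 122, 131 and 118 CPM with 6N-10CA and 97.4, 93.9 and 90.3 CPM with 6N (0.40, SE 0.05). The libraries of both compounds stood apart in each. PLTP was at 0.26. The cholesterol exporter ABCA1, a defining LXR target, had 91.6, 101 and 97.2 CPM with 6N-10CA and 85.1, 90.2 and 97.6 CPM with 6N (0.09, 95% interval -0.05 to 0.22), and ABCG5 and ABCG8 stood at 0.18 and 0.00. None of these 3 was called. The call of PLTP was lost without 6N-10CA replicate 1 (adjusted p = 0.111), 6N-10CA replicate 2 (0.0533), 6N replicate 2 (0.0508) and 6N replicate 3 (0.0818). LPCAT3 was also the 1 called gene of 20 of phosphatidylcholine synthesis and remodelling (5%, beside 1.64% of all genes tested), where the block had 4 higher and 2 lower.

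Among apolipoproteins and factors that remodel lipoproteins 3 of 22 rose, with 0 lower and a median of 0.16. The called share was 13.6%, beside 1.64% of all genes tested. LIPG, the endothelial lipase, had 19.5, 26.3 and 26.1 CPM with 6N-10CA and 11.7, 14.2 and 12.9 CPM with 6N (0.89, SE 0.16, adjusted p = 0.00325). PLTP, at 0.26, is given with the LXR targets above. The major apolipoproteins did not pass: APOB stood at 0.24 (adjusted p = 0.0852) and APOA1 at 0.04. With the block 10 were higher and 0 lower, APOB (adjusted p = 0.0199), APOA2 (0.00101) and APOC1 (0.000163) among them.

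Fatty acid oxidation and PPAR alpha targets rose in 4 of 31 members with 0 lower (12.9%, beside 1.64% of all genes tested). The median was 0.05. FABP1, the fatty acid carrier of the hepatocyte cytosol, had 1118, 862 and 999 CPM with 6N-10CA and 683, 448 and 568 CPM with 6N. All 3 libraries with 6N-10CA lay above those with 6N, though the replicates of each spread widely (0.81, SE 0.14, adjusted p = 0.00275). ACOT1, an acyl-CoA thioesterase with a near-identical neighbour, was at 0.35, PLIN2 at 0.38 and CPT2, the inner carnitine transferase, at 0.27. CPT1A, the entry step of oxidation, stood at -0.18 (95% interval -0.50 to 0.15). The call of CPT2 was lost without any 1 of the 6 libraries (adjusted p from 0.0595 to 0.161), and that of PLIN2 as given above. With the block 7 were higher and 2 lower.

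Genes of drug and steroid metabolism divided, with 2 of 30 higher and 3 lower and a median of -0.09. The called share was 16.7%, beside 1.64% of all genes tested. CYP4F2, which hydroxylates leukotrienes and vitamin K and E side chains, had 46.1, 38.2 and 45.0 CPM with 6N-10CA and 28.9, 26.0 and 24.3 CPM with 6N (0.71, SE 0.09, adjusted p = 0.000132). UGT2B10, a glucuronosyltransferase, was at 0.41. CYB5A, cytochrome b5, had 296, 274 and 281 CPM with 6N-10CA, 363, 320 and 323 CPM with 6N and 195, 184 and 190 CPM with DMSO. It was lower with 6N-10CA than with 6N (-0.24, SE 0.06) and higher than DMSO with both, at 0.58 and 0.82. EPHX1 (microsomal epoxide hydrolase) was at -0.24 and GSTA1 (a glutathione transferase with close relatives) at -0.34. CYP3A4 stood at 0.466 CPM with 6N-10CA and 0.524 CPM with 6N (-0.16, 95% interval -0.98 to 0.66). Among these, only CYP4F2 kept its call throughout. CYB5A lost it without 6N-10CA replicates 2 (adjusted p = 0.131) and 3 (0.127) and 6N replicate 1 (0.157), UGT2B10 without 6N-10CA replicates 1 and 3 and 6N replicates 2 and 3 (0.0765 to 0.12), and EPHX1 and GSTA1 without each library but 1, namely 6N-10CA replicate 1 for EPHX1 and 6N-10CA replicate 2 for GSTA1 (up to 0.149 and 0.165). With the block 2 were higher and 6 lower.

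Of 34 genes of DNA replication and mitosis 2 were lower and 0 higher (5.88%, beside 1.64% of all genes tested), with a median of -0.11. PLK1, a mitotic kinase, had 494, 487 and 491 CPM with 6N-10CA and 564, 582 and 561 CPM with 6N (-0.21, SE 0.04, adjusted p = 0.00291). CDC20, which activates the anaphase-promoting complex, was at -0.21, and its call held only without 6N replicate 3 (adjusted p up to 0.12 for the others). With the block 17 were lower and 0 higher, where 4.42% of all genes tested were lower. Among the 17 were AURKA at -0.20, BIRC5 at -0.18 and MCM2 at -0.15. DESeq2 called 7 of the list lower. In the 6 libraries alone 0 were called. Over DMSO the list median was -0.01 with 6N-10CA and 0.10 with 6N, with 0 called for either compound.

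Hypoxia-responsive genes, targets of HIF transcription factors, rose in 2 of 24 members with 0 lower and a median of 0.15. The called share was 8.33%, beside 1.64% of all genes tested. P4HA1, which hydroxylates proline in collagen, had 265, 260 and 269 CPM with 6N-10CA and 193, 162 and 189 CPM with 6N (0.55, SE 0.09, adjusted p = 0.00109). It stood at 0.64 for 6N-10CA over DMSO, called, and 0.09 for 6N over DMSO, not called. PDK1, which brakes pyruvate entry to mitochondria, was at 0.33. With the block 15 of the 24 were higher and 0 lower, where 3.9% of all genes tested were higher. EGLN3, a HIF prolyl hydroxylase, passed only with the block: it had 14.9, 15.6 and 20.1 CPM with 6N-10CA and 9.86, 9.76 and 13.9 CPM with 6N, with replicate 3 highest in both (adjusted p = 0.203, and 1.47e-05 with the block). PFKFB3, a driver of glycolysis, had 20.0, 26.0 and 45.1 CPM with 6N-10CA and 14.2, 16.5 and 32.5 CPM with 6N, and within each number 6N-10CA was higher. Its log2 fold change was 0.52 (SE 0.42, adjusted p = 0.615, and 0.00141 with the block). Genes of glucose production and glycolysis had 0 of 29 called and a median of 0.10, and with the block 10 were higher, LDHA and PGK1 among them, and 2 lower, TXNIP and G6PC. PDK1 lost its call without 6N-10CA replicate 2 (adjusted p = 0.0536), 6N-10CA replicate 3 (0.111), 6N replicate 1 (0.0819) and 6N replicate 3 (0.0546).

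Of the stress lists, 7.41% of the ATF4 list and 4.55% of the NRF2 list were called, beside 1.64% of all genes tested. Of 27 ATF4 targets and serine synthesis genes 2 rose (with the block 2 were higher and 2 lower): TRIB3, a pseudokinase, with 405, 384 and 411 CPM with 6N-10CA and 314, 315 and 307 CPM with 6N (0.36, SE 0.05), and DDIT4, an mTORC1 inhibitor, at 0.33. PGD, of the pentose phosphate pathway that supplies NADPH, was the 1 called gene of 22 NRF2 targets (0.25, SE 0.05), where the block had 3 higher and 2 lower. The unfolded protein response (21 tested), heat shock (15), p53 targets (19) and NF-kB signalling (19) gave 0 calls each in edgeR's quasi-likelihood fit. With the block the counts of higher and lower were 1 and 1, 0 and 3, 0 and 2, and 1 and 1 in that order. Of 28 lysosome and autophagy genes LIPA, the acid lipase that frees cholesterol from its esters, was at 0.23 and WIPI1 at 0.35, both higher, and CTSB (cathepsin B) was lower at -0.30. Of these 28, 10.7% were called, beside 1.64% of all genes tested, and with the block 2 were higher and 4 lower. DDIT4 lost its call without each library but 6N replicate 2 (adjusted p up to 0.165), CTSB without 6N-10CA replicates 2 (0.0757) and 3 (0.0605) and 6N replicate 1 (0.0676), and WIPI1 without 6N-10CA replicates 1 and 2 and 6N replicates 1 and 2 (0.0559 to 0.112).

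In the other lists, CDH1 (E-cadherin, 0.29) was the 1 called of 20 junction genes, 5% beside 1.64% of all genes tested. Its call was lost without 6N-10CA replicates 1 (adjusted p = 0.12) and 3 (0.142) and 6N replicates 1 (0.081) and 2 (0.184). Acute phase proteins (20 tested), coagulation and complement (42), iron and BMP-SMAD targets (19), the urea cycle (14), liver transcription factors (18), nuclear receptors (33), SRF and YAP targets (25), mitochondrial mRNAs (13), the respiratory chain (35) and ribosomal proteins (45) gave 0 calls in that fit. Their medians lay between -0.04 and 0.04. With the block coagulation and complement had 7 higher and 3 lower, SRF and YAP targets 4 higher, and acute phase proteins 3 higher. The block also gave 1 higher and 2 lower for the urea cycle, 2 and 2 for liver transcription factors, 1 and 1 for iron and BMP-SMAD targets, 1 and 1 for nuclear receptors, and 0 and 1 for mitochondrial mRNAs. The respiratory chain and ribosomal proteins stayed at 0. TF (transferrin), the plasma iron carrier, had 21421, 18641 and 20749 CPM with 6N-10CA and 17988, 14781 and 17129 CPM with 6N and stood at 0.29 (adjusted p = 0.0676, and 1.78e-08 with the block).

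**Figure D4:**
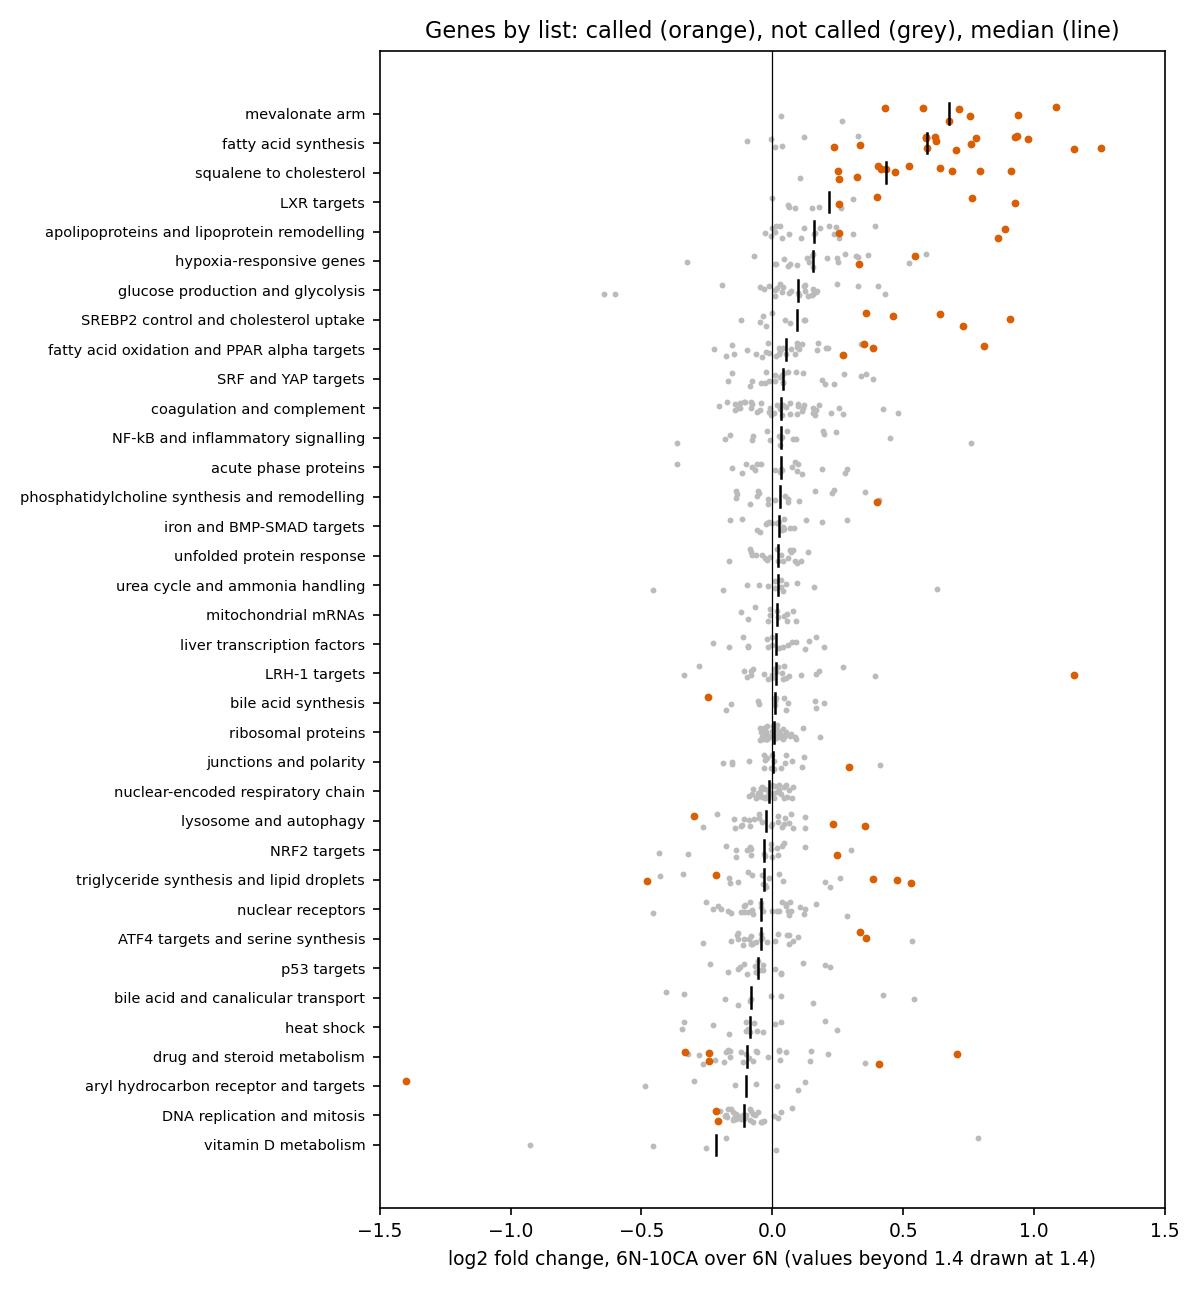
Log2 fold change of 6N-10CA over 6N (horizontal axis, values beyond 1.4 drawn at 1.4) for the tested genes of each list, sorted by the list median (line); called genes are orange and others grey. The sterol and fatty acid lists lie at the top with medians of 0.44 to 0.68, and ribosomal proteins lie close to 0.

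Outside these lists the largest rises were in genes of low expression. IL21R, the interleukin-21 receptor chain (chr16:27402162-27452042), had 14.4, 13.7 and 15.8 CPM with 6N-10CA, against 5.78, 4.66 and 6.00 CPM with 6N. The groups lay far apart (1.41, SE 0.10, adjusted p = 4.22e-08). IL17B, a cytokine of the IL-17 family (chr5:149371324-149404202), had 25.8, 22.2 and 24.2 CPM with 6N-10CA and 12.7, 8.49 and 8.61 CPM with 6N (1.27, SE 0.12), and 24.6, 24.6 and 24.8 CPM with DMSO. C6orf223 had 7.72, 3.70 and 4.56 CPM with 6N-10CA and 1.60, 1.51 and 1.58 CPM with 6N (1.76, SE 0.31), the largest rise of a gene above 1 CPM. FSIP2, a protein of the sperm tail sheath, was at 1.29, RNF223 at 1.54 and CAPN12, a calpain whose exons overlap ACTN4 on the opposite strand, at 1.09. CAPN12 lost its call without 6N-10CA replicate 1 (adjusted p = 0.114), 6N replicate 2 (0.089) and 6N replicate 3 (0.0917), and RNF223 without each library but 6N-10CA replicate 2 (up to 0.164).

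The largest falls after CYP1A1 were under 2-fold. SLC5A11, a sodium and inositol cotransporter, had 3.67, 5.79 and 4.70 CPM with 6N-10CA and 8.85, 7.55 and 8.19 CPM with 6N (-0.79, SE 0.15, adjusted p = 0.00547), and kept its call with each library left out. FGF23, a phosphate-regulating hormone, had 5.28, 7.68 and 6.42 CPM with 6N-10CA and 12.1, 11.4 and 9.58 CPM with 6N (-0.77, SE 0.18). The groups did not overlap in either gene, which the rule for naming the largest changes required. IHH, the Indian hedgehog ligand, had 3.08, 2.54 and 2.78 CPM with 6N-10CA, 4.18, 4.53 and 3.87 CPM with 6N and 4.34, 4.23 and 4.35 CPM with DMSO (-0.59 over 6N, SE 0.13), and was called over DMSO with 6N-10CA at -0.63. PLCXD1 was at -0.45 over 6N and also called over DMSO with 6N-10CA, at -0.45. ZNF114 was at -0.74, PALM3 at -0.67, GGT6 at -0.57 and C17orf51 at -0.43, and the pseudogenes SPCS2P4 and PTCHD3P1 were at -0.60 and -0.55, where reads shared with parent genes make the counts uncertain. Calls held only without 6N-10CA replicate 2 and 6N replicate 3 for FGF23 and only without 6N-10CA replicate 1 and 6N replicate 3 for IHH, and were lost without 3 libraries for PLCXD1 (6N-10CA replicate 2, 6N replicates 1 and 3) and GGT6 (6N-10CA replicates 2 and 3, 6N replicate 2), without 2 for C17orf51 (6N-10CA replicate 1, 6N replicate 2), without each but 6N-10CA replicate 2 for ZNF114, each but 6N-10CA replicate 3 for SPCS2P4, each but 6N replicate 3 for PTCHD3P1 and each of the 6 for PALM3, with adjusted p up to 0.191.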

How the data were processed

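The data are raw counts per gene for 18 HepG2 libraries in 6 groups of 3, deposited by the authors as 1 table. GRCh38 and DESeq2 are named in the submitters' processing notes; which aligner, counter and strand setting were used is not stated in these sources. Counts were tested with edgeR 4.0.16 (limma 3.58.1, R 4.3.3): filterByExpr (minimum count 10, minimum total 15) kept 14797 of 35238 rows, libraries were scaled by TMM, and quasi-likelihood tests were fitted on all 18 libraries with 12 residual degrees of freedom, without a replicate block. P-values were adjusted by Benjamini-Hochberg over all genes tested, with 0.05 as the threshold. CPM were computed on TMM-scaled library sizes, and fitted log2 fold changes used edgeR's default prior count. A prior count of 2 entered the log2 CPM behind the replicate correlations. The procedure was tested on simulated data.

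Genes named were the 12 largest called changes in each direction with a mean of at least 1 CPM, up to 4 called genes of each list by adjusted p, and NR5A2; other list members are given with their values. The members, lists and tests were chosen with earlier results of these data known. DESeq2 1.42.0, limma-voom, other filters and scalings, the 6 libraries alone, a replicate block and leaving out each library were tried as alternatives. Replicate numbers are in the labels, which do not say what they mark. Deviations of same-numbered 6N-10CA and 6N libraries correlated at 0.34, 0.194 and 0.128 over 12611 genes of at least 1 CPM and at 0.496, 0.31 and 0.374 over 10686 genes of at least 5 CPM, but at 0.113, 0.0696 and 0.0563 over all 14797, where 1 of the 3 exceeded 0.1. On the genes of at least 1 CPM, a limit chosen after the data were seen, all 3 exceeded 0.1, so the blocked value is printed beside results whose call or count it changes; the counts and folds reported are those of the fit without the block. This pairing comes from the data, not the labels. Gene positions came from GENCODE 29, which matched 13922 genes tested (94.1%) by symbol, and promoters from RefSeq (GRCh38.p14). In the table, 28 symbols had been turned into dates, and none of these is named. Some called members of the lists enter the counts, medians and sums and are not reported here by name.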

Additional observations from a re-analysis of the deposited data

How the results depend on the processing

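The counts of called, higher and lower genes were 242, 166 and 76 (68.6% higher). They were 109, 93 and 16 (85.3% higher) in the 6 libraries alone, 403, 266 and 137 with no filter on low counts, and 501, 248 and 253 (49.5% higher) with DESeq2, which gave no adjusted p for 2869 genes. Of the 242 genes, 103 were called in the 6 libraries alone, 212 with no filter and 239 with DESeq2; the causes were not tested. DESeq2's size factors in edgeR (250 called), a minimum of 1 CPM (256) and limma-voom (234) moved no count by over 1.5 times. Leaving out 1 library gave 138 to 235 called, 105 to 147 higher and 25 to 88 lower. No result changed sign where it was called. Of the 64 called genes named by rule, PALM3 and PTCHD3P1 lost the call with no filter, and RNF223 with DESeq2 and with limma-voom.

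With the replicate block 1231 genes were called, 577 higher and 654 lower (46.9% higher), and all 64 named genes kept their call. At these depths a change in a gene near the limit that a count of 0 allows can be missed unless it is large. PSAPL1, at 0.142 CPM with 6N and 0.599 CPM with 6N-10CA, was called (2.06 on the log2 scale).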

Other observations

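Of the 242 called genes, 172 were in none of the lists. The following were chosen after their values were seen, and leaving out single libraries was not run for them. MAP1B, a microtubule-associated protein, had 50, 51.3 and 51.7 CPM with 6N-10CA, against 34.5, 31.8 and 34.6 CPM with 6N (0.60 on the log2 scale, SE 0.05, adjusted p = 7.79e-07), and was also called for 6N-10CA over DMSO at 0.34. UCP2, a mitochondrial carrier, was at 0.54, ALDOC, a glycolytic aldolase, at 0.68, and PPP1R3C, which targets a phosphatase to glycogen, at 0.57. NPC1L1, the sterol transporter that ezetimibe blocks, had 83.9, 78.9 and 82 CPM with 6N-10CA and 57.2, 65.6 and 58.9 CPM with 6N (0.43, SE 0.07). In each of these genes called here the libraries of the compounds did not overlap. MMAB, a cobalamin enzyme whose gene lies head to head with MVK, was at 0.38, and HSD17B12, an enzyme of long-chain fatty acid elongation, at 0.35.

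Among lower genes, SPP1 (osteopontin) had 699, 688 and 654 CPM with 6N-10CA and 889, 783 and 832 CPM with 6N (-0.30, SE 0.06, adjusted p = 0.0067), and was called for 6N-10CA over DMSO at -0.52. The amino acid transporters SLC38A5 and SLC1A5 were at -0.30 and -0.22. KHK, which phosphorylates fructose, was at -0.22, and ACSS1, the mitochondrial acetyl-CoA synthetase, at -0.35, where its cytosolic relative ACSS2 was at 0.98.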
